A study of Mus musculus with 6 samples.

Results

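Synaptic transmission needs vesicles that dock, fuse when calcium enters and are then retrieved, and 38 genes of that machinery were followed in sorted retinal ganglion cells, the output neurons of the retina. They were listed by gene name across 6 families of synaptic proteins. Each gene was read from 1 probe set, its brightest on average, and all 38 were found among the 18193 genes measured. Retinas from C57BL/6 mice were taken at postnatal day 6, dissociated with papain, sorted by flow cytometry and hybridised to Affymetrix mouse arrays after 2 rounds of amplification. The Hb9 group (2 arrays) and the Drd4 group (2 arrays) hold cells positive for both GFP and Thy1, named for the mouse line that marks them. The Thy1 group (2 arrays) holds cells sorted by Thy1 alone, which ganglion cells in general carry on their surface. The labels name no treatment, and the 2 arrays in a group stand for separate litters. They do not say how GFP is driven in either line or how many animals went into a sort. Both lines are known to mark ON-OFF direction-selective ganglion cells, Drd4 cells those tuned to posterior motion and Hb9 cells those tuned to upward motion. Comparing the 3 groups asks whether the release machinery stood at the same level in both subtypes and in ganglion cells at large during the first postnatal week, when ganglion cell axons are forming synapses in the brain.

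As background, a synaptic vesicle carries the SNARE protein synaptobrevin, which zips together with syntaxin and SNAP-25 on the plasma membrane to drive fusion. Synaptotagmins on the vesicle sense calcium, complexins hold and release the assembled SNARE complex, and Munc13 and RIM proteins prime vesicles at the active zone under the scaffolds bassoon and piccolo. After fusion, NSF and its SNAP adaptors take the SNARE complex apart, and clathrin adaptors, amphiphysin, endophilin, dynamin and synaptojanin recover the membrane.

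The values are log2 probe set intensities and every group has n = 2 arrays, so single arrays are given; errors of differences are limma standard errors. Differences were called at an adjusted p below 0.05 in limma, with Benjamini-Hochberg adjustment over all 18193 genes. Median intensities of the arrays ran from 45.5 to 47.7, and log2 intensities of the 38 genes correlated across genes, which are not independent replicates, at 0.992 to 0.996 between replicate arrays and 0.974 to 0.991 between arrays of different groups. The background reference, the brightest probe set for an untargeted Bacillus transcript, lay between 4.95 and 5.38. All 7 measured ganglion cell markers were above it on all arrays, among them Slc17a6, the vesicular glutamate transporter of these cells. The Thy1 sort read higher for several lists of other cells and states. Its summed intensity over 13 microglial genes was 7364 to 12626, against 1817 to 2270 in Hb9 and 1141 to 3265 in Drd4, with 12 of the 13 called lower in each line. Over 14 pericyte and endothelial genes the sums were 8109 to 9021, 1818 to 2208 and 542 to 1389 in that order, with 4 called lower in Hb9 and 5 in Drd4. The pericyte genes Rgs5, Abcc9 and Pdgfrb were the brightest of these 14 in Thy1, with means of 12.49, 10.21 and 9.77. In Hb9 they averaged 10.27, 7.37 and 6.51. Their Drd4 arrays stood at 9.50 and 5.01, 6.77 and 4.54, and 5.93 and 3.14. The endothelial genes Pecam1, Cldn5, Tek and Tie1 and the pericyte gene Anpep were at or below the reference on every array. Others of the endothelium were above it on all 6, Kdr at 6.48 (Hb9), 6.36 (Drd4) and 6.49 (Thy1), Flt1 at 6.19, 6.11 and 7.17, and Esam at 6.75, 6.67 and 7.18. Over 12 genes of dividing cells the sums were 1688 to 2582 in Thy1, 1113 to 1216 in Hb9 and 919 to 1087 in Drd4, with 5 called lower in Hb9 and 7 in Drd4 and 0 higher (unadjusted 0). Over 14 immediate-early and stress genes they were 4476 to 5703, 2716 to 3076 and 2468 to 2730, with 7 and 8 called lower and 0 higher (unadjusted 0). Sums over 12 Müller glia and progenitor genes were 3635 to 3724, 2187 to 2193 and 2505 to 2915, and over 5 astrocyte genes 196 to 224, 186 to 188 and 210 to 213. Of those 12, 3 were called lower in Hb9 than in Thy1, and 2 lower and 1 higher in Drd4. Rlbp1 and Sox2 were at or below the reference on every array. Glul averaged 10.16 (Hb9), 10.43 (Drd4) and 10.46 (Thy1), Vim 8.35, 8.09 and 10.09, and Dkk3 8.02, 9.17 and 8.05. In sorted bulk RNA, fewer cells of a type and less RNA per cell cannot be told apart. What these cells and states contributed to the differences from Thy1 was not tested. The ratio of the 5′ to the 3′ control probe set for 18S rRNA also moved with a group, at 1.12 and 1.19 on the Hb9 arrays and 3.21 to 5.23 on the other 4. The 3′ to 5′ ratio of Gapdh was 4.65 and 5.04 on the Hb9 arrays and 3.84 to 4.45 on the other 4, while that of beta-actin overlapped between groups, at 4.02 to 4.81 in Hb9 and 4.58 to 5.06 elsewhere. The part of this in the Hb9 differences was not tested.

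On all 6 arrays 35 of the 38 genes, or 92.1%, stood above the background reference, as did 65.0% of all genes, and 28 had a mean of at least 8, a level reached by 3917 of the 18193 genes. The exceptions were Syt2, above the reference on 1 array, and Sv2c and Cplx3, above it on 5. Levels of different probe sets cannot be ranked as amounts of transcript, so what follows compares each gene with itself across groups.

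**Figure D1:**
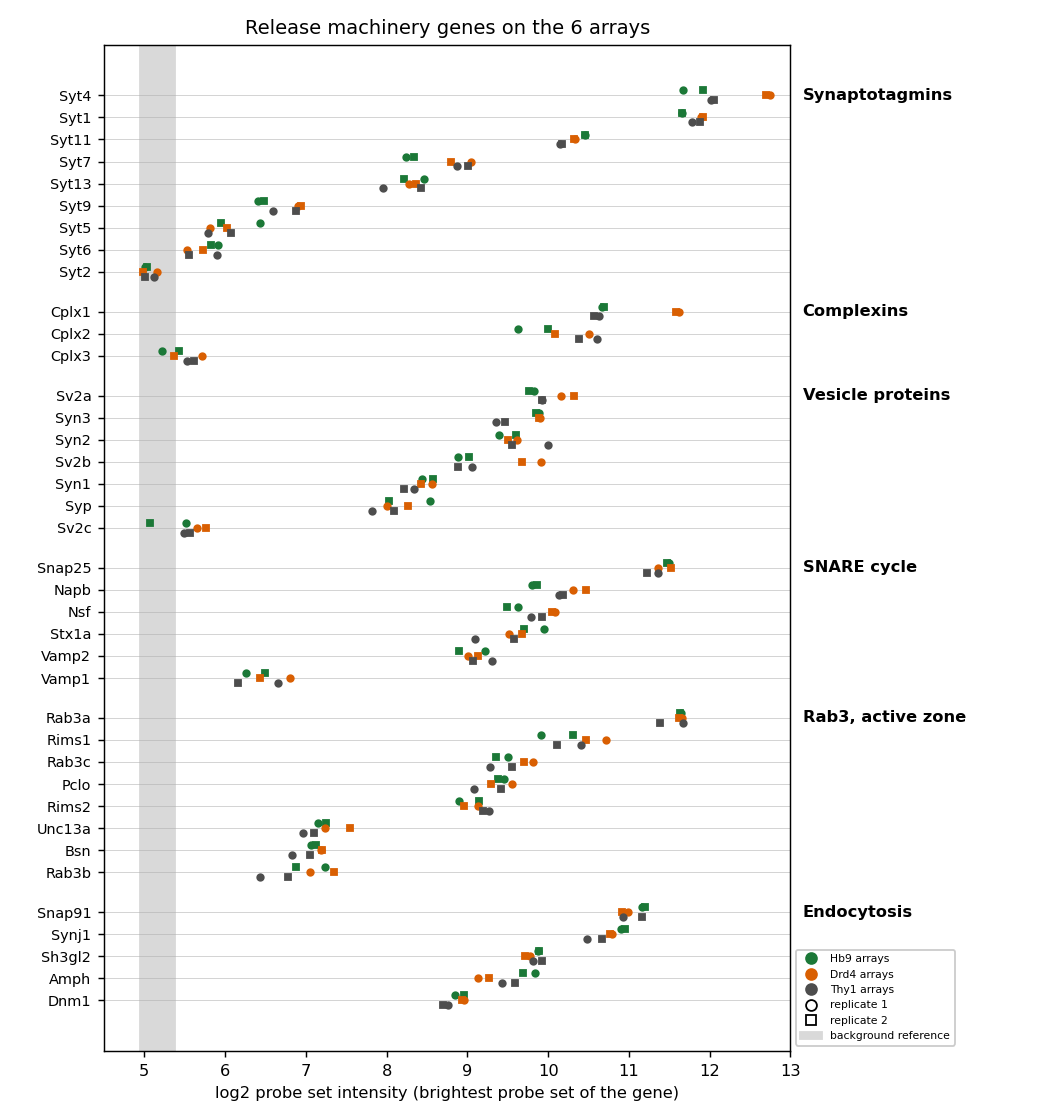
Log2 intensity of the brightest probe set of each of the 38 genes (x axis) on every array, by family; circles are replicate 1 and squares replicate 2, and the grey band spans the background reference of the 6 arrays. Cplx1 and Syt4 show the Drd4 arrays (orange) clear of the other 4, and Syt2 lies in the band.

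Genes passed in each comparison, and the largest count was between the lines. Against the Thy1 sort 3 of the 38 genes were higher in Drd4, namely Cplx1, Syt4 and Sv2b, and 0 were lower, where 1.51% of all genes were called higher and 3.96% lower, and 2.96% and 3.14% of those with a mean of at least 8 (unadjusted p below 0.05 for 8 higher and 0 lower). In Hb9 against Thy1, 1 gene was lower, Syt7, and 0 were higher, against 3.19% and 3.52% of all genes and 2.88% and 5.95% of the brighter ones (unadjusted 4 lower and 5 higher). Between the lines, 5 genes were lower in Hb9 than in Drd4, namely Syt4, Syt7, Cplx1, Sv2b and Napb, and 1 was higher, Amph, against 2.06% and 4.06% of all genes and 3.78% and 6.25% of the brighter ones. There limma's unadjusted p was below 0.05 for 12 lower and 1 higher, and for 1141 lower and 2452 higher of all 18193 genes. With both lines averaged, Cplx1 and Syn3 were higher than in Thy1 and 0 were lower, against 1.55% and 3.54% of all genes and 2.63% and 2.63% of the brighter ones (unadjusted 2 lower). Comparisons with Thy1 share the Thy1 arrays, and those of each line share its own arrays, so they are not separate evidence.

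By their medians the 38 genes shifted little, while between the lines their differences reached further down than those of all genes. The median log2 difference of the 38 genes was 0.18 for Drd4 minus Thy1, 0.04 for Hb9 minus Thy1 and -0.05 for Hb9 minus Drd4, beside 0.02, 0.04 and 0.04 over all genes. Over the 3917 genes with a mean of at least 8 the medians were 0.08, 0.16 and 0.09. The quartiles of Hb9 minus Drd4 were -0.44 and 0.04 over the 38 genes. They were -0.11 and 0.22 over all genes and -0.14 and 0.31 over the brighter ones. When each array was centred on 16 pan-neuronal genes, the medians of the 38 became 0.09, 0.09 and 0.07, so the sign of the Hb9 minus Drd4 median depended on the scaling. That centring moved the median of all genes by 0.13 for Hb9 minus Drd4, to 0.17. Both Drd4 arrays read above both Thy1 arrays for 19 of the 38 genes, against 21.8% of all genes and 29.5% of the brighter ones, and below them for 3, against 19.3% and 14.1%. For Hb9 the same counts were 12 above and 10 below, against 33.2% and 21.0% of all genes and 47.9% and 16.3% of the brighter ones. Hb9 lay wholly below Drd4 for 15 and wholly above for 7, against 19.1% and 30.6% of all genes and 21.3% and 41.4% of the brighter ones.

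**Figure D2:**
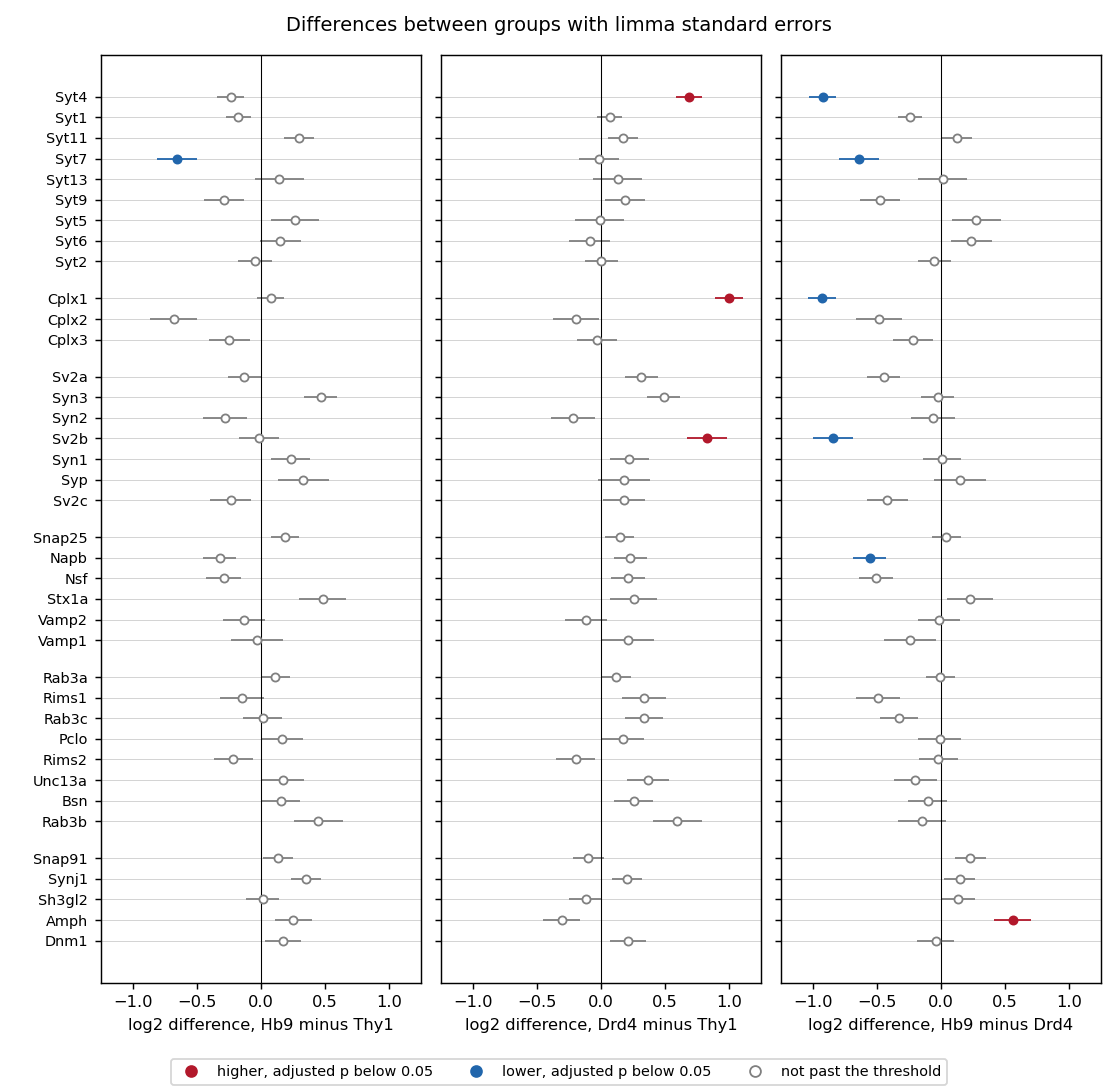
Log2 difference (x axis) of each of the 38 genes for Hb9 minus Thy1, Drd4 minus Thy1 and Hb9 minus Drd4; bars are limma standard errors and filled points passed an adjusted p of 0.05. Cplx1, Syt4 and Sv2b are filled to the right for Drd4 minus Thy1 and to the left for Hb9 minus Drd4.

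Of the 3 complexins, Cplx1 passed and the others did not. Cplx1, which encodes the complexin that clamps and then promotes calcium-triggered fusion at most fast synapses, read 10.67 and 10.69 on the Hb9 arrays, 11.62 and 11.59 on the Drd4 arrays and 10.63 and 10.57 on the Thy1 arrays. Both Drd4 arrays stood about a whole log2 unit above the other 4, and Hb9 and Thy1 differed little. Cplx1 was 2.00-fold higher in Drd4 than in Thy1 (log2 difference 1.0 ± 0.11, adjusted p = 0.000447 in limma) and 1.90-fold higher than in Hb9 (Hb9 minus Drd4 -0.93 ± 0.11, adjusted p = 0.000778). Its second probe set gave 1.12 ± 0.13 and -1.13 ± 0.13 for the same comparisons, and a dimmer one, at 6.97 on average, gave 0.24 ± 0.16 and -0.28 ± 0.16. For the mean of both lines minus Thy1 the Cplx1 difference was 0.54 ± 0.09 (adjusted p = 0.00846). Leaving out Thy1 replicate 2 ended that call (adjusted p = 0.0507), as did averaging all its probe sets (0.0627), and the lowest adjusted p of any alternative was 0.00727.

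Cplx2, the other complexin of brain synapses, read 9.62 and 10.00 on the Hb9 arrays, 10.50 and 10.09 on the Drd4 arrays and 10.60 and 10.38 on the Thy1 arrays. The Hb9 arrays were the lowest of the 6, but both lines showed a wide gap between replicates. The Hb9 minus Thy1 difference of -0.68 ± 0.18 fell just short (adjusted p = 0.0516), and passed in 7 of 18 alternatives, with adjusted p from 0.0232 to 0.961 over the 18. It passed, for example, without Drd4 replicate 1 (0.0240) or Drd4 replicate 2 (0.0232). A second Cplx2 probe set, at 8.81 on average, gave 0.20 ± 0.14 instead, so the direction rests on the probe set. Hb9 minus Drd4 was -0.48 ± 0.18 and the mean of both lines minus Thy1 -0.44 ± 0.16, and neither passed (adjusted p = 0.161 and 0.164). Cplx3, a complexin known from ribbon synapses of photoreceptors and bipolar cells and from amacrine cells, lay near the background reference, with means of 5.32 (Hb9), 5.54 (Drd4) and 5.57 (Thy1).

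Among the 7 vesicle protein genes, Sv2b had the largest called difference. SV2 proteins are glycoproteins of the vesicle membrane, and the 3 paralogs divide the nervous system between them. Sv2b read 8.89 and 9.02 on the Hb9 arrays, 9.92 and 9.67 on the Drd4 arrays and 9.06 and 8.88 on the Thy1 arrays. Again the Drd4 arrays were the highest, and Hb9 overlapped Thy1. The gene was 1.77-fold higher in Drd4 than in Thy1 (0.83 ± 0.15, adjusted p = 0.00976 in limma) and 1.79-fold higher than in Hb9 (Hb9 minus Drd4 -0.84 ± 0.15, adjusted p = 0.0104). Without Drd4 replicate 1 the first call was lost (adjusted p = 0.0684), as it was without Thy1 replicate 2 (0.0619) or with the second probe set (0.210), and the lowest adjusted p was 0.00900. The second was lost without Hb9 replicate 1 (0.108), Hb9 replicate 2 (0.0502) or Drd4 replicate 1 (0.0735) and with the second probe set (0.123). For the mean of both lines minus Thy1 it was 0.41 ± 0.13 and did not pass (adjusted p = 0.132).

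Cplx1 and Sv2b are the pair among the 3 genes higher in Drd4 that has a promoter in the RefSeq table of build GRCm38.p6, so their sequence is shown for the 250 bases before the most upstream start. In all, 30 of the 38 genes had an entry. Capitals mark a GC box (GGGCGG) in Cplx1 and a TATA box (TATAAA) in Sv2b, both searched on either strand and found here on the strand opposite to the letters given. The windows are chr5:108550028-108550277 and chr7:75309263-75309512, minus strand, and each sequence runs 5′ to 3′ toward the start.
Cplx1: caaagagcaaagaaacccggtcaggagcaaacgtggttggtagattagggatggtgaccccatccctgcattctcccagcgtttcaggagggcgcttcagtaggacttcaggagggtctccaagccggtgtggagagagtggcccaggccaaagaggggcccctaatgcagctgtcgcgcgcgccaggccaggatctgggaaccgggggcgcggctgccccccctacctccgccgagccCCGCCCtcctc
Sv2b: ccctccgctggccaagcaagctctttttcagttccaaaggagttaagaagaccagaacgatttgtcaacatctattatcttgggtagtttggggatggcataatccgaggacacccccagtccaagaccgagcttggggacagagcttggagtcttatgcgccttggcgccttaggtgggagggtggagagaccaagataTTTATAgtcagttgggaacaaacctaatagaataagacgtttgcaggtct
The matches begin 11 and 50 bases before the start. A GC box was in 20 of the 30 windows and in 42.7% of 17492 protein-coding genes with an entry, and a TATA box was in 2 of 30 and 12.4%. Neither window held the cyclic AMP response element TGACGTCA, present in 2 of 30, Syn1 and Sh3gl2, and in 2.0% of all. The E-box CANNTG was in 18 of 30 and 62.7%. These matches describe the letters in the windows and no binding was measured.

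The other vesicle gene to pass was Syn3, with both lines averaged. Syn3, the synapsin expressed early in neuronal development, read 9.88 and 9.85 on the Hb9 arrays, 9.90 and 9.89 on the Drd4 arrays and 9.35 and 9.46 on the Thy1 arrays. All 4 arrays of the lines lay above both Thy1 arrays and close to one another. Its differences from Thy1 were 0.46 ± 0.13 in Hb9 and 0.49 ± 0.13 in Drd4, short of the threshold in each (adjusted p = 0.0635 and 0.0629), and 0.48 ± 0.11 for the mean of both lines, which passed (adjusted p = 0.0389). That last call was lost without each of the 6 arrays in turn, with adjusted p of 0.0681 (without Drd4 replicate 1) to 0.253 (without Thy1 replicate 1), and was retained in 7 of 17 alternatives. It was also lost with quantile normalisation (0.0600), with averaged probe sets (0.0813) and with the second probe set (0.127; adjusted p in each).

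Sv2a, the broadly expressed SV2 paralog, read 9.82 and 9.77 on the Hb9 arrays, 10.16 and 10.32 on the Drd4 arrays and 9.92 and 9.92 on the Thy1 arrays. It was highest in Drd4 and lowest in Hb9 without overlap, yet neither the 0.32 ± 0.13 of Drd4 minus Thy1 (adjusted p = 0.282) nor the -0.45 ± 0.13 of Hb9 minus Drd4 (adjusted p = 0.0786) passed. Sv2c, the dimmest vesicle gene, had means of 5.29 (Hb9), 5.71 (Drd4) and 5.53 (Thy1), near the background reference. Synapsin I and II coat vesicles and tether them in the reserve pool. Syn1 averaged 8.50 (Hb9), 8.50 (Drd4) and 8.27 (Thy1), and Syn2 averaged 9.50 (Hb9), 9.56 (Drd4) and 9.77 (Thy1), with the 2 Thy1 arrays of Syn2 apart at 10.00 and 9.55. Synaptophysin, an abundant vesicle membrane protein and a usual synapse marker, had means for Syp of 8.29 (Hb9), 8.13 (Drd4) and 7.95 (Thy1), and its groups overlapped in every comparison.

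Among the synaptotagmins, Syt4 was the brightest and changed most. Syt4 belongs with Syt11 to a branch that does not sense calcium as Syt1 does and is carried on peptide-containing vesicles. Syt4 read 11.67 and 11.92 on the Hb9 arrays, 12.74 and 12.70 on the Drd4 arrays and 12.01 and 12.05 on the Thy1 arrays. The Drd4 arrays were the highest, the Thy1 arrays lay between, and the Hb9 arrays were the lowest. It was 1.61-fold higher in Drd4 than in Thy1 (0.69 ± 0.10, adjusted p = 0.00308 in limma) and 1.89-fold higher than in Hb9 (Hb9 minus Drd4 -0.92 ± 0.10, adjusted p = 0.000647), and both calls held with any array left out. Hb9 minus Thy1, at -0.24 ± 0.10, did not pass (adjusted p = 0.208). With the second, dimmer probe set the differences were smaller, at 0.31 ± 0.14 and -0.47 ± 0.14, and neither passed when that probe set stood for the gene (adjusted p = 0.411 and 0.0907).

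Syt7 encodes the slow, high-affinity calcium sensor of asynchronous release and vesicle replenishment. It read 8.24 and 8.34 on the Hb9 arrays, 9.05 and 8.80 on the Drd4 arrays and 8.87 and 9.01 on the Thy1 arrays. Both Hb9 arrays were below the other 4, and Drd4 overlapped Thy1. Syt7 was 1.57-fold lower in Hb9 than in Thy1 (-0.65 ± 0.16, adjusted p = 0.0347) and 1.56-fold lower than in Drd4 (-0.64 ± 0.16, adjusted p = 0.0400). The first call was lost without either Hb9 or either Thy1 array (adjusted p = 0.0970 to 0.229). Averaging the probe sets of Syt7 shrank it to -0.16 (adjusted p = 0.466), and the second probe set alone gave an adjusted p of 0.433. The second was lost without either Hb9 array or Drd4 replicate 1 (adjusted p = 0.142 to 0.261), with median centring (0.0533), with averaged probe sets (-0.22, adjusted p = 0.355) and with the second probe set (0.414). Of the other Syt7 probe sets above background, one gave -0.23 ± 0.14 and another 0.32 ± 0.18 for Hb9 minus Thy1.

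The other 7 synaptotagmins did not pass in any comparison. Syt1, the fast calcium sensor of synchronous release, had means of 11.66 (Hb9), 11.90 (Drd4) and 11.83 (Thy1). Syt11 averaged 10.45 (Hb9), 10.33 (Drd4) and 10.16 (Thy1), with both lines above Thy1 on every array. Syt9, another calcium-binding isoform, averaged 6.45 (Hb9), 6.92 (Drd4) and 6.74 (Thy1), and its Hb9 arrays lay below the other 4. Syt13, which lacks calcium-binding residues, averaged 8.33 (Hb9), 8.32 (Drd4) and 8.19 (Thy1), and its groups overlapped throughout. Syt5 averaged 6.20 (Hb9), 5.92 (Drd4) and 5.93 (Thy1) and Syt6 5.87 (Hb9), 5.63 (Drd4) and 5.72 (Thy1). Syt2, the fast sensor of many hindbrain and spinal synapses, was near the background reference in all groups, with means of 5.02 (Hb9), 5.07 (Drd4) and 5.07 (Thy1).

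Of the 6 SNARE cycle genes 1 passed, Napb, and in 1 comparison. It encodes beta-SNAP, the neuronal adaptor that brings NSF to spent SNARE complexes, and read 9.80 and 9.87 on the Hb9 arrays, 10.30 and 10.47 on the Drd4 arrays and 10.13 and 10.19 on the Thy1 arrays. The Hb9 arrays were lowest and the Drd4 arrays highest, with Thy1 between. Napb was 1.47-fold lower in Hb9 than in Drd4 (-0.55 ± 0.13, adjusted p = 0.0333 in limma), while Hb9 minus Thy1 (-0.32 ± 0.13, adjusted p = 0.168) and Drd4 minus Thy1 (0.23 ± 0.13, adjusted p = 0.499) did not pass. The call was lost without any single Hb9 or Drd4 array (adjusted p = 0.0665 to 0.241) and with the second probe set (0.396). Nsf, the ATPase that pulls SNARE complexes apart, had the same order of groups, with means of 9.56 (Hb9), 10.06 (Drd4) and 9.85 (Thy1), and its Hb9 minus Drd4 difference of -0.50 ± 0.13 fell short (adjusted p = 0.0559).

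Of the SNAREs themselves, Snap25, the brightest gene of this family, averaged 11.48 (Hb9), 11.44 (Drd4) and 11.29 (Thy1). Its Hb9 minus Thy1 and Hb9 minus Drd4 differences were 0.19 ± 0.11 and 0.04 ± 0.11. A second Snap25 probe set, at 10.97 on average, gave -0.47 ± 0.15 and -0.36 ± 0.15, so the direction rests on the probe set. Neither probe set was called. Stx1a, a syntaxin of the presynaptic membrane, read 9.94 and 9.69 on the Hb9 arrays, 9.51 and 9.67 on the Drd4 arrays and 9.09 and 9.58 on the Thy1 arrays. The Hb9 arrays lay above both Thy1 arrays, but the Thy1 arrays were far apart. Hb9 minus Thy1 was 0.48 ± 0.18 (adjusted p = 0.148) and passed with Thy1 replicate 2 left out (0.72, adjusted p = 0.0450, with 0.0450 to 0.670 over all alternatives). Vamp2, the main synaptobrevin of forebrain synapses, averaged 9.06 (Hb9), 9.07 (Drd4) and 9.19 (Thy1), and its paralog Vamp1, the dimmest gene of the family, averaged 6.38 (Hb9), 6.62 (Drd4) and 6.41 (Thy1). The groups of both synaptobrevins overlapped in every comparison.

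No Rab3 or active zone gene passed in any comparison, with limma's unadjusted p below 0.05 for 1, 3 and 1 of 8 in Hb9 against Thy1, Drd4 against Thy1 and Hb9 against Drd4. Of all 18193 genes, 4195, 2647 and 3593 had such a p in the same order. Rab3 GTPases ride on vesicles and bind RIM at the active zone. Rab3b, the dimmest of the 8, read 7.23 and 6.87 on the Hb9 arrays, 7.06 and 7.34 on the Drd4 arrays and 6.44 and 6.77 on the Thy1 arrays. Both lines lay above Thy1 without overlap, with wide gaps between the arrays of each group. Its differences from Thy1 were 0.45 ± 0.19 in Hb9 and 0.59 ± 0.19 in Drd4 (adjusted p = 0.195 and 0.136). Rab3a, the main vesicle Rab and the brightest of the 8, averaged 11.64 (Hb9), 11.64 (Drd4) and 11.53 (Thy1), and Rab3c averaged 9.43 (Hb9), 9.75 (Drd4) and 9.42 (Thy1). Rims1, a RIM scaffold that recruits calcium channels and primes vesicles, averaged 10.11 (Hb9), 10.59 (Drd4) and 10.26 (Thy1), with Hb9 wholly below Drd4. A second Rims1 probe set, at 8.93 on average, put Hb9 minus Drd4 at 0.05 ± 0.15. By its brightest probe set Rims2 was lower in both lines than in Thy1, averaging 9.02 (Hb9), 9.04 (Drd4) and 9.24 (Thy1). Its second, at 8.20 on average, put Hb9 and Drd4 at 0.12 ± 0.18 and 0.07 ± 0.18 from Thy1. Unc13a, the priming factor Munc13-1, averaged 7.20 (Hb9), 7.40 (Drd4) and 7.03 (Thy1). The giant scaffold genes Bsn and Pclo averaged 7.10 (Hb9), 7.20 (Drd4) and 6.94 (Thy1), and 9.41 (Hb9), 9.42 (Drd4) and 9.25 (Thy1).

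Of the 5 endocytosis genes 1 passed, Amph, the one among the 38 called higher in Hb9 than in Drd4. It encodes amphiphysin, which curves the membrane and brings dynamin to the neck of a forming vesicle, and read 9.84 and 9.68 on the Hb9 arrays, 9.13 and 9.27 on the Drd4 arrays and 9.43 and 9.59 on the Thy1 arrays. The groups ran Hb9, Thy1, Drd4 from high to low without overlap. Amph was 1.47-fold higher in Hb9 than in Drd4 (0.56 ± 0.14, adjusted p = 0.0492 in limma). The adjusted p was above 0.05 without any single Hb9 or Drd4 array (0.0780 to 0.346) and with quantile normalisation (0.0592). Against Thy1 it stood at 0.25 ± 0.14 in Hb9 and -0.31 ± 0.14 in Drd4, neither past the threshold (adjusted p = 0.333 and 0.373).

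Synj1, the phosphatase that strips phosphoinositides and uncoats retrieved vesicles, read 10.90 and 10.95 on the Hb9 arrays, 10.80 and 10.77 on the Drd4 arrays and 10.48 and 10.67 on the Thy1 arrays. Its brightest probe set put both lines above Thy1, with Hb9 minus Thy1 at 0.35 ± 0.12 and the mean of both lines minus Thy1 at 0.28 ± 0.10 (adjusted p = 0.111 and 0.184). The next probe set put Hb9 at -0.26 against Thy1, so the direction depended on the probe set. Snap91, the clathrin adaptor AP180 and the brightest gene of this family, averaged 11.18 (Hb9), 10.95 (Drd4) and 11.04 (Thy1). Sh3gl2, endophilin A1, averaged 9.88 (Hb9), 9.75 (Drd4) and 9.87 (Thy1). Its Hb9 minus Drd4 difference was 0.13 ± 0.13 and was not called. A second Sh3gl2 probe set, at 8.07 on average, was called the other way (-0.67 ± 0.14, adjusted p = 0.0191 in limma over all named probe sets). That probe set put Hb9 minus Thy1 at -0.51 ± 0.14, beside 0.01 ± 0.13 for the brightest, and neither was called. Dnm1, the neuronal dynamin that pinches vesicles off, was the dimmest gene of this family and averaged 8.90 (Hb9), 8.94 (Drd4) and 8.73 (Thy1).

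Many of these genes have further probe sets on the array. The 38 genes hold 101 probe sets; 9 genes have 1, and 29 have up to 6. Beside the brightest, 47 probe sets had a mean above the background reference. Fitted with all named probe sets on the array, 12 of these 47 were lower in Hb9 than in Drd4 and 0 were higher (unadjusted p below 0.05 for 20 and 2), where 7.54% and 3.74% of all 9456 such probe sets were called lower and higher. The 12 belong to Napb (3), Syt1 (2), Cplx1, Nsf, Pclo, Rab3c, Sh3gl2, Syn2 and Synj1. Against Thy1, 7 were lower in Hb9 and 0 higher (unadjusted 13 and 5), against 7.00% and 3.17%, and 4 were higher in Drd4 and 0 lower (unadjusted 13 and 0), against 1.76% and 2.88%. Of all 9456, limma's unadjusted p was below 0.05 for 1435 lower and 1128 higher in Hb9 than in Drd4. Against Thy1 these counts were 1278 lower and 1270 higher in Hb9, and 610 lower and 748 higher in Drd4. The median Hb9 minus Drd4 difference was -0.25 over the 47 and -0.01 over the 9456.

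Syt1 shows how far probe sets of a gene can part. Its brightest probe set gave -0.18 ± 0.10 for Hb9 minus Thy1. The next brightest read 7.21 and 7.11 in Hb9, 8.69 and 8.72 in Drd4 and 8.54 and 8.65 in Thy1. The Hb9 arrays were over a log2 unit below the rest, at -1.43 ± 0.15 against Thy1 (adjusted p = 0.000490 over all named probe sets) and -1.54 ± 0.15 against Drd4 (adjusted p = 0.000179). Another Syt1 probe set gave -0.61 ± 0.15 and -0.83 ± 0.15. Of the 5 further Napb probe sets 4 were above background, and 3 of these put Hb9 minus Drd4 between -1.07 and -1.35, larger than the -0.55 of the brightest. The exception is nearly as bright as the brightest, at 10.12 beside 10.13 on average, and gave -0.23 ± 0.13. It also put Hb9 above Thy1, by 0.30 ± 0.13, where the brightest put it at -0.32 ± 0.13, and neither was called. The other 3 were all called lower in Hb9 than in Thy1, at -0.69 ± 0.15, -0.89 ± 0.17 and -0.85 ± 0.17 (adjusted p = 0.0191, 0.0115 and 0.0163). A second Nsf probe set stood at -0.90 ± 0.15 for Hb9 minus Thy1 and -0.89 ± 0.15 for Hb9 minus Drd4 (adjusted p = 0.00677 and 0.00537), and a second Syn2 probe set at -0.92 ± 0.15 and -0.70 ± 0.15 (adjusted p = 0.00657 and 0.0212). Over the 25 genes with at least 2 probe sets above background, the brightest and the second agreed in sign for 18 in Drd4 minus Thy1, 16 in Hb9 minus Thy1 and 15 in Hb9 minus Drd4. Where each probe set lies on its transcript was not used here, and the 18S and Gapdh ratios given above, which set the Hb9 arrays apart, stand beside these Hb9 values without a test.

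**Figure D3:**
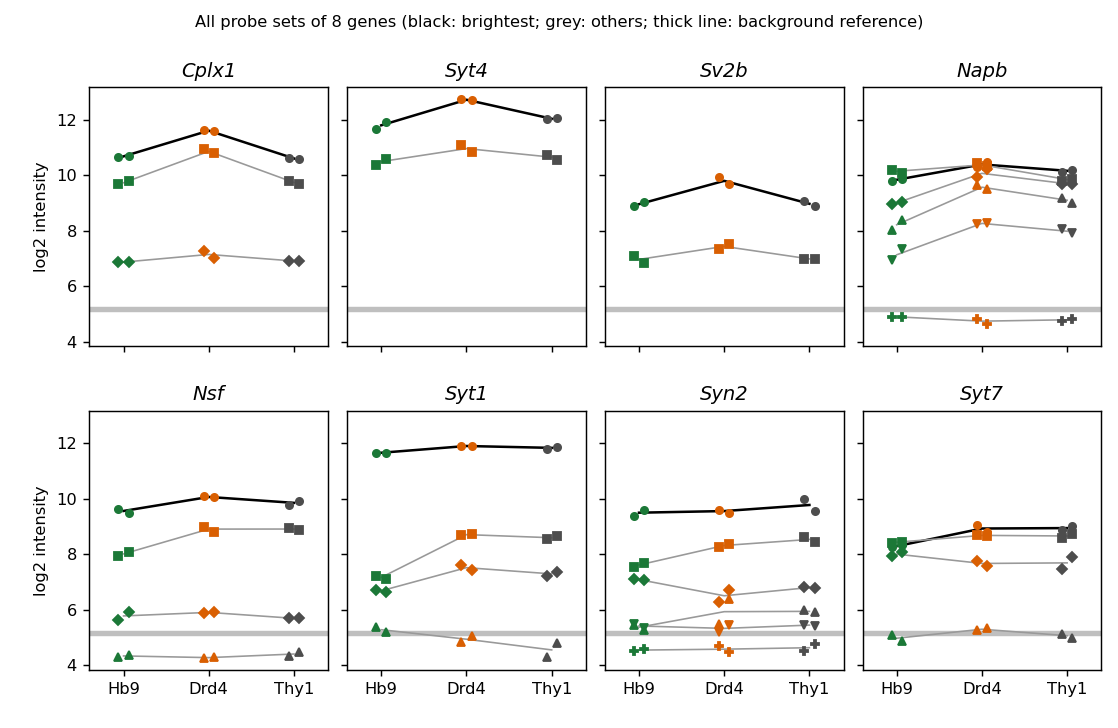
Log2 intensity (y axis) of every probe set of 8 genes on the arrays of each group; points are single arrays with a shape for each probe set, lines join group means, black for the brightest probe set and grey for the others, and the thick line is the mean background reference. The 2 brighter Cplx1 probe sets peak together in Drd4, while Syt1 has a flat brightest probe set and 2 others that dip in Hb9.

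Lists of related genes give the setting of these values. The shares of all genes called in each comparison, given above, stand beside the counts of these lists too. Of 54 further release genes 0 were higher and 2 lower in Drd4 than in Thy1 (unadjusted p below 0.05 for 6 and 3 in limma). Their median was 0.13, beside 0.02 over all genes and 0.08 over those with a mean of at least 8. The larger of the 2 called differences was that of Synpr, which encodes synaptoporin, a relative of synaptophysin. Synpr read 9.01 and 9.32 on the Hb9 arrays, 7.94 and 7.10 on the Drd4 arrays and 10.21 and 9.72 on the Thy1 arrays. It was lowest in Drd4 by a wide margin, at -2.44 ± 0.27 from Thy1 (adjusted p = 0.000468) and with Hb9 minus Drd4 at 1.64 ± 0.27 (adjusted p = 0.00572). The other was Vamp3, a synaptobrevin relative found in most cell types, lower than in Thy1 in both lines, at -0.79 in Drd4 and -0.94 in Hb9 (adjusted p = 0.0201 and 0.0105), beside the microglial and pericyte sums given above.

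In Hb9, 4 of the 54 were higher and 1 lower than in Thy1 (limma's unadjusted p below 0.05 for 11 and 5). Of all genes 3.52% and 3.19% were so called, and of those with a mean of at least 8, 5.95% and 2.88%. The median of the 54 was 0.14, beside 0.04 over all genes and 0.16 over the brighter ones. Rab27b, a GTPase of secretory vesicles, was 3.04-fold higher, with means of 9.07 (Hb9), 7.62 (Drd4) and 7.46 (Thy1). Ppfia2, the active zone scaffold liprin-alpha-2, differed by 0.70 ± 0.16 (adjusted p = 0.0279), and Unc13b, the priming factor Munc13-2, by 0.68 ± 0.17 (adjusted p = 0.0437). The fourth was Dmxl2, named only to complete the count after its value was seen, at 0.53 ± 0.13. Rab27b, Ppfia2 and Synpr were the 3 called between the lines, all higher in Hb9, with Rab27b at 1.44 ± 0.20 and Ppfia2 at 0.98 ± 0.16.

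Of 19 vesicular transporters and proton pump subunits, 2 were higher in Drd4 than in Thy1, and 0 lower (unadjusted 2 and 0). Slc18a2, the vesicular monoamine transporter, read 8.31 and 8.53 on the Hb9 arrays, 9.50 and 9.19 on the Drd4 arrays and 8.33 and 8.53 on the Thy1 arrays. The Drd4 arrays were clear of the rest, at 0.92 ± 0.17 (adjusted p = 0.00976), and Hb9 minus Drd4 was -0.93 ± 0.17 (adjusted p = 0.0109). The pump subunit gene Atp6v1g2 differed by 0.68 ± 0.15 (adjusted p = 0.0249). In Hb9 the pump subunit gene Atp6v1h was higher than in Thy1 by 0.51 ± 0.13 (adjusted p = 0.0447). Of 27 further endocytosis genes 1 was higher in Hb9 than in Thy1, Itsn1, an intersectin scaffold of clathrin pits, at 0.78 ± 0.16 (adjusted p = 0.0212). In Drd4 0 of the 27 passed in limma, with an unadjusted p below 0.05 for 2.

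As a reference for neuronal maturation at large, 21 postsynaptic genes and 26 genes of growing neurons were set beside the release machinery. Postsynaptic genes had 1 higher in Drd4 than in Thy1, the adhesion gene Nlgn3 (0.62 ± 0.13, adjusted p = 0.0245), and 0 lower (unadjusted 0). In Hb9 the scaffold gene Dlg2 was higher (0.63 ± 0.14) and the adhesion gene Nlgn1 lower (-0.71 ± 0.17), and Nlgn1 was also lower in Hb9 than in Drd4 (-0.93 ± 0.17, adjusted p = 0.0118). Of the growing neuron genes 0 passed in Drd4 against Thy1 (unadjusted p below 0.05 for 4 in limma), and Dpysl4 (0.86 ± 0.19) and Marcksl1 (0.55 ± 0.14) were higher in Hb9. Between the lines Dcx, a microtubule protein of young neurons, was lower in Hb9 (-0.60 ± 0.13, adjusted p = 0.0241) and Cd24a, a surface protein of young neurons, was higher (0.95 ± 0.19, adjusted p = 0.0183). The medians of Drd4 minus Thy1 were 0.08 for postsynaptic and 0.09 for growing neuron genes, beside 0.18 for the release machinery. Those of Hb9 minus Thy1 were 0.03, 0.16 and 0.04 in the same order. For the 16 pan-neuronal genes the medians were 0.15 in Drd4 minus Thy1 and -0.02 in Hb9 minus Thy1.

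**Figure D4:**
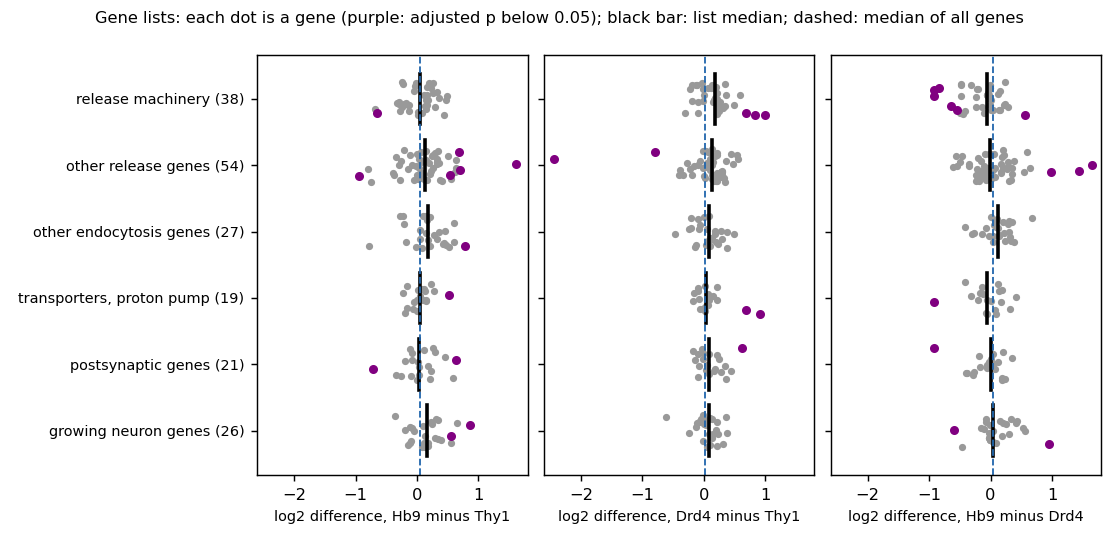
Log2 differences (x axis) of the 38 release genes and of 5 other gene lists in 3 comparisons; dots are genes, purple dots passed an adjusted p of 0.05, black bars are list medians and the dashed line is the median of all genes. Release genes called in Drd4 minus Thy1 all lie to the right, and Synpr is the far left dot among the other release genes.

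Markers of other retinal neurons were set beside these results. The summed intensity of 11 amacrine genes was 3131 on both Drd4 arrays, 2181 to 2449 in Hb9 and 1670 to 1902 in Thy1. Of the genes that define inhibitory and cholinergic amacrine cells, Gad1, Slc32a1, Slc18a3 and Tfap2b were at or below the background reference on all arrays. Gad2 was above it on all 6, with means of 6.02 (Hb9), 6.29 (Drd4) and 6.42 (Thy1), and so was Slc6a9, at 7.17, 7.38 and 7.19, while Chat, Th and Tfap2a were above it on 5. Called higher in Drd4 than in Thy1 were 2 of the 11, Dab1 (means 9.86 and 8.26) and Pax6 (means 10.73 and 9.94). These 2 were also the largest terms of the amacrine sum in every group. The sum over 6 horizontal cell genes was lowest in Drd4, at 225 to 295, against 656 to 899 in Hb9 and 574 to 613 in Thy1, with 3 called lower than in Thy1 in Drd4 and 1 in Hb9. Its largest term in Hb9 and Thy1 was Calb1, with means of 9.01 (Hb9), 6.08 (Drd4) and 7.91 (Thy1), and Lhx1 and Prox1 were at or below the reference on all arrays. Over 8 bipolar cell genes the sums were 1645 to 1901 in Drd4, 4031 to 4665 in Hb9 and 3551 to 3650 in Thy1. The one bipolar gene called lower in Drd4 than in Thy1 was Isl1, also on the ganglion cell list, with means of 11.62 (Hb9), 9.69 (Drd4) and 11.43 (Thy1), and Otx2 was at or below the reference on all arrays. The part of such cells in the Drd4 differences was not tested. Sums over 11 rod and cone genes ran from 426.2 to 469.3 over the 6 arrays, with overlapping groups.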

How the data were processed

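The authors deposited probe set intensities on a linear scale, per the values of the table; how the arrays were summarised and normalised was not given in the sources used here, nor was the software. There are 45101 probe sets, of which 64 are controls, 34945 name 1 gene, and 932 name several and were left out. Log2 was taken with no floor, since the lowest intensity was 5.54. The brightest probe set per gene on average gave 18193 genes. limma 3.58.1 in R 4.3.3 fitted a mean for each group over all 6 arrays (3 residual and 6.98 prior degrees of freedom, intensity trend), with two-sided tests and Benjamini-Hochberg adjustment at 0.05. Precision is limited by having 2 arrays a group: a difference had a median standard error of 0.15, and an exact permutation test with 2 a side reaches 0.333 at best. P-values measure the spread between the arrays of a group, which stand for separate litters, after moderation over all genes. That spread also holds any difference between sorts and amplifications, which 2 arrays a group cannot separate from litter. The fit was tested on simulated data.

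The 38 genes and all lists were chosen with earlier results of these data known. Named in full were called genes, the 6 smallest p in each comparison, and the brightest and dimmest of each family; in other lists, up to 3 called genes a direction. Labels give no batch. Nothing ties equal replicate numbers to a litter, and the main model leaves them out. Alternatives were quantile normalisation, centring on medians or on pan-neuronal genes, the mean of all probe sets, dim genes left out, no trend, robust moderation, array weights, the replicate block, an offset of 16, only the compared groups, each array left out, and, added after the data were seen, the second brightest probe set. The brighter-gene background (mean of at least 8) was also set after the data were seen.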

Additional observations from a re-analysis of the deposited data

Results flagged for a closer look

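For 6 genes the effect of the line against Thy1 differed between Hb9 and Drd4, tested as Hb9 minus Drd4 in limma. Syt4 was -0.24 in Hb9 and 0.69 in Drd4, a difference of -0.92. Cplx1 was 0.07 and 1.0, a difference of -0.93. Sv2b was -0.02 and 0.83, a difference of -0.84. Syt7 was -0.65 and -0.02, a difference of -0.64. Napb was -0.32 and 0.23, a difference of -0.55. Amph was 0.25 and -0.31, a difference of 0.56. By their brightest probe sets, Syt4, Napb and Amph therefore lay on opposite sides of Thy1 in the 2 lines. Among these 3, only Syt4 in Drd4 passed against Thy1. Sv2b differed in sign as well, but its Hb9 arrays overlapped Thy1. For Napb the sides depended on the probe set. Another, at 10.12 on average, put both lines above Thy1, by 0.30 in Hb9 and 0.53 in Drd4. Groups of 2 arrays are too small for a search for outlying arrays.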

How the results depend on the processing

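The count of release genes called in Drd4 against Thy1 stayed at 2 or 3 under every alternative that kept all 6 arrays. The genes in that count changed with the probe set. With the second brightest, Cplx1 kept its call while Syt4 and Sv2b lost theirs (adjusted p = 0.411 and 0.210 in limma). The count there therefore took in another gene. With an array left out, the differences were 0.97 to 1.03 for Cplx1, 0.66 to 0.71 for Syt4 and 0.71 to 0.95 for Sv2b. In Hb9 against Thy1 the main count of 1 became 2 with quantile normalisation, median centring, robust moderation, array weights or only the compared groups, 3 with pan-neuronal centring or the second brightest probe set, and 0 with the mean of all probe sets or the replicate block, and ran from 0 (without Hb9 replicate 1, Hb9 replicate 2 or Thy1 replicate 1) to 2 (without Drd4 replicate 1 or 2). Between the lines the count of 6 fell to 3 under the replicate block and ran from 2 to 6 with an array left out; 2 were left without Hb9 replicate 1, Hb9 replicate 2 or Drd4 replicate 1. Quantile normalisation turned the split of 1 higher and 5 lower into 0 and 6. For the mean of both lines the count of 2 became 1 with quantile normalisation or the replicate block and 0 with the mean of all probe sets, and ran from 0 (without Thy1 replicate 2) to 1 (without any other array). The block left the calls in Drd4 against Thy1 as they were, ended that of Syt7 against Thy1 (adjusted p = 0.0572 in limma), those of Syt7 (0.0670), Napb (0.0566) and Amph (0.0837) between the lines, and that of Syn3 (0.0771) for both lines averaged. Deviations of same-numbered arrays correlated at -0.28 (Hb9 and Drd4), -0.19 (Hb9 and Thy1) and 0.37 (Drd4 and Thy1). With 2 arrays a group, these values cannot tell whether equal numbers share a litter or a batch. The main model left the numbers out because the labels do not tie them to either.

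Directions turned for genes that had not passed: with the second brightest probe set, Hb9 minus Thy1 became 0.20 for Cplx2, -0.26 for Synj1 and 0.30 for Napb, and the mean of both lines minus Thy1 became 0.027 for Cplx2 and -0.079 for Synj1; with the mean of all probe sets, Synj1 became -0.077 in Hb9 minus Thy1. Those alternatives read other probe sets. Over all genes, pan-neuronal centring gave 1192 higher and 578 lower in Hb9 against Thy1 (main 640 and 580) and 1943 and 314 in Hb9 against Drd4 (main 739 and 374). Signal near background limits what can be said of Syt2, Sv2c and Cplx3.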
